A study of Mus musculus with 8 samples.

Results

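The neuronal genes Celf4, Camta1 and Igsf21, 3 of 21911 protein-coding genes, were selected because they hold or neighbour some of the strongest EHMT2 peaks in mouse embryonic stem cells (mESCs). They were chosen on the fold enrichment of peaks called with the HA antibody C29F4, so the height of those peaks describes the choice and was not tested. Each locus was taken as the gene body extended by 50 kb on both sides. The 3 windows span 1.74 Mb and hold 11 of 11010 C29F4 peaks. They also hold 23 of 40816 peaks of a second HA antibody, ab9110, in DMSO, 11 of 16324 ab9110 peaks after dTAG, and 4 of 2050 peaks of input chromatin from dTAG-treated cells.

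All samples bear the cell line label EHMT2-dTAG-mcherry and the background BL6/129 hybrid, given in the methods as KH2 cells, a C57BL/6J x 129S1 F1. The label covers more than 1 clone. The end of the EHMT2 gene carries a degron, an HA tag and an mCherry reporter in every sample, controls included, and dTAG-13 triggers degradation of the tagged protein. How much EHMT2 was left after dTAG is not measured by these lists. The series holds 8 samples, all taken after 24 h. C29F4 was used on DMSO-treated cells only (2 ChIP and 2 input samples, described in the methods as independent clones), and ab9110 on DMSO-treated and dTAG-treated cells (1 ChIP and 1 input sample each). The C29F4 peaks were called after the replicates had been merged, so each condition is represented by 1 list. No difference between lists has a replicate check, no p-value is given, and the intervals cover counting error only.

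EHMT2, also known as G9a, is the methyltransferase that places most mono- and dimethylation on lysine 9 of histone H3 in euchromatin, usually as a dimer with EHMT1. It has no sequence-specific DNA-binding domain and is brought to chromatin by other proteins. Celf4 encodes an RNA-binding protein that acts on neuronal mRNAs. Camta1 encodes a calmodulin-binding transcription activator that is highly expressed in brain, and Igsf21 encodes a synaptic adhesion protein. RE1 is the DNA element bound by REST, a repressor that keeps neuronal genes silent in other cells and for which EHMT2 is a known co-repressor. REST occupancy was not measured in these data.

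Depth differed between lists. Mean coverage, reconstructed from the peak caller's values as the number of fragments over an average base, was 3.64 for C29F4, 2.11 for ab9110 in DMSO, 1.23 for ab9110 after dTAG and 0.978 for input. At that background the smallest callable peak had 12, 9, 7 and 8 fragments at its summit. Coverage after dTAG was 58.2% of that in DMSO. No list distinguishes less tagged protein at a site from a less efficient pulldown.

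The 3 strongest peaks of the windows ranked 2, 3 and 5 among all C29F4 peaks by fold enrichment. This is the ratio of fragments to local background at the summit, with the same constant added to both. It is therefore lower than fragments divided by background. Camta1 held the peak with rank 2 (fold 52.0), Celf4 that with rank 3 (34.7) and Igsf21 that with rank 5 (26.1). The C29F4 list had a median fold of 3.67 and a highest fold of 63.6. The next peaks of the windows were well below the lead peaks, at ranks 118 (upstream of Igsf21, fold 11.9), 516 (upstream of Celf4, 8.68) and 752 (in Camta1, 7.92). The remaining 5 had folds of 3.21 to 5.36.

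**Figure D1:**
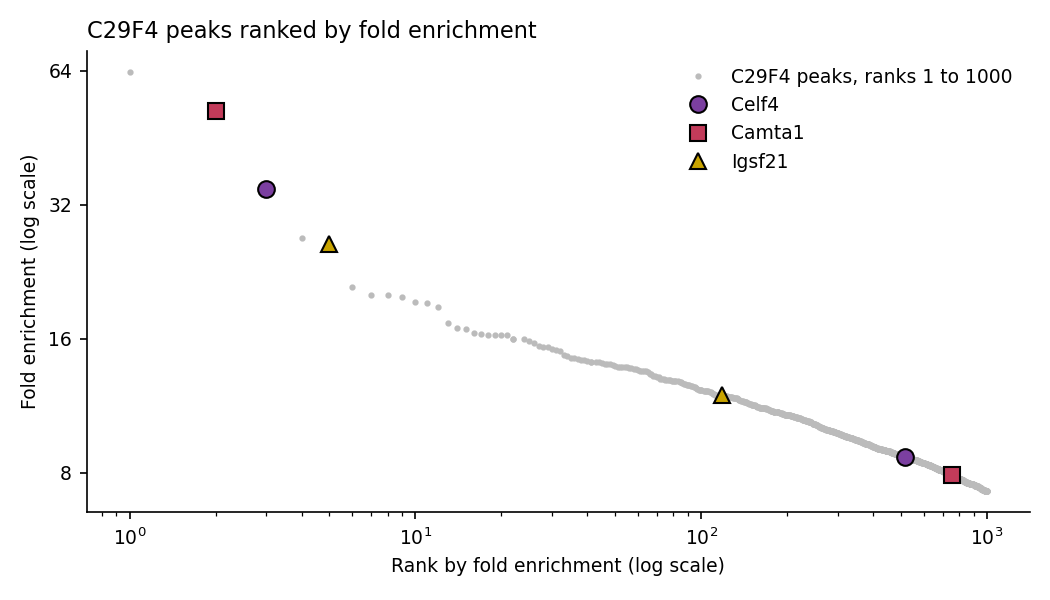
Fold enrichment (log scale) against rank (log scale) for the 1000 C29F4 peaks with the highest fold, with the peaks of the Celf4, Camta1 and Igsf21 windows marked by gene. The 3 lead peaks sit at ranks 2, 3 and 5, and 3 more peaks of the windows fall between ranks 118 and 752.

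Camta1 lies on the minus strand of chromosome 4 (mm10, 150917322 to 151861876, 944.6 kb) and has 25 exons in its principal transcript. Its lead peak, chr4:151604178-151605647, was 1470 bp wide and lay in intron 3, 256.9 kb downstream of the gene's start. C29F4 gave 521 fragments at the summit (95% Poisson interval 477 to 568) over a background of 9.03. With ab9110 in DMSO the same place had 160 fragments (136 to 187) over 6.60, a fold of 21.2 that ranked 7 in that list, and the summit lay 40 bp away. After dTAG a peak remained there with 14 fragments (7.65 to 23.5) over 2.81, a fold of 3.94. It covered 37.8% of the C29F4 peak. The DMSO value corresponds to 93.2 fragments at dTAG coverage, so the dTAG interval lay wholly below it. No input peak overlapped the place.

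The sequence under the Camta1 lead peak is shown because it repeats a short RE1-like run many times. RE1 was searched on both strands as TTCAGCACC and GGACAGCG, separated by 2 bases, which gives 17 compared bases in a run of 19. The lead peak held 11 non-overlapping runs with at most 5 mismatches, all on the minus strand, spread over 560 bp with a median step of 41 bp. The limit of 5 mismatches was set after these sequences had been read. It is loose: at least 1 such run lay within 150 bp of 13.9% of C29F4 summits. Among windows of 300 bases spaced along chromosome 4 the share was 4.43%. No such share was computed for whole peaks. The best run in the whole peak had 1 mismatch, and the best within 150 bp of the summit had 3. Below are the 300 bases at the summit in mm10, plus strand, chr4:151604826-151605125, with the 4 runs in this stretch in capitals.
Camta1 256.9 kb: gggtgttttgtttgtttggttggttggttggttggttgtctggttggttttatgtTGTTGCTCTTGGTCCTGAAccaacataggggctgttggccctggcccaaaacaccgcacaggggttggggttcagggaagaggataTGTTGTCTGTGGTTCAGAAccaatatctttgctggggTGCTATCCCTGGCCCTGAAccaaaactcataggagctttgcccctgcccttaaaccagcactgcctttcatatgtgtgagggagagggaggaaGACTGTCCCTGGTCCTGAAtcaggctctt

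Igsf21 also lies on the minus strand of chromosome 4 (140026846 to 140246784, 219.9 kb, 10 exons). Its lead peak lay outside the gene, 12.4 kb upstream of the single annotated start, and no annotated gene covers the summit. The peak, chr4:140258760-140259689, was 930 bp wide with 261 C29F4 fragments (230 to 295) over 9.03. With ab9110 in DMSO there were 81 fragments (64.3 to 101) over 6.60, with the summit 18 bp away. The fold was 10.8, which ranked 286 in that list, while the fragments ranked 34. The 81 fragments equal 47.2 at dTAG coverage, where 13 would have been called over the scaled background, and no dTAG peak was called. No input peak overlapped it either.

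The Igsf21 lead peak is printed for comparison with Camta1. It held 4 runs with at most 5 mismatches to RE1, all on the minus strand within 151 bp, and none of those 151 bp was soft-masked as a repeat. The best run had 3 mismatches. The shorter word GGACAG, which is part of RE1 and was picked after the sequence had been read, occurred 9 times on either strand in the 300 bases at the summit. As many copies were found at 2 of 11010 C29F4 summits, or 0.0182%. The other lead peaks did not share this: Camta1 and Celf4 had 1 copy each, and 38.1% of C29F4 summits had at least 1. The remaining C29F4 peaks of the windows had 0 to 3 copies. The stretch is chr4:140259033-140259332, plus strand, with the 4 runs in capitals. All copies of the word appear there as its reverse complement, those outside the runs in lower case.
Igsf21 -12.4 kb: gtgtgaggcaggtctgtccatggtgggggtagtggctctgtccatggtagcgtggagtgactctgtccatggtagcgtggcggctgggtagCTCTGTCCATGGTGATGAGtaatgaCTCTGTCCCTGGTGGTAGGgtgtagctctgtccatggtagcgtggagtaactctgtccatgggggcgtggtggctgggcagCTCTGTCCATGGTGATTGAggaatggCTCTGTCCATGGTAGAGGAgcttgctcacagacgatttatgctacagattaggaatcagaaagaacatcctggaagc

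The best run within 150 bp of the summit is listed for each C29F4 peak on chromosome 4 that had one, to show which bases are kept. For the Camta1 lead peak the best run of the whole peak follows, which lay 279 bp from the summit and matched 16 of 17 bases. All are written in the direction of RE1, with bases that match RE1 in capitals and mismatches and the 2 spacer bases in lower case. The spacer counts as neither match nor mismatch. Outside the lead peaks, the runs at 675.9 kb in Camta1 and 36.9 kb upstream of Igsf21 matched 15 of 17 bases.
Camta1 675.9 kb, chr4:151185937-151185955, plus strand: TTCAGCACtctGGACAGaG
Camta1 572.5 kb, chr4:151289375-151289393, plus strand: gcCAGCACCacGGACAGaG
Camta1 256.9 kb, chr4:151605097-151605115, minus strand: TTCAGgACCagGGACAGtc
Camta1 256.9 kb, whole peak, chr4:151604688-151604706, minus strand: TTCAGaACCagGGACAGCG
Igsf21 -12.4 kb, chr4:140259124-140259142, minus strand: cTCAtCACCatGGACAGaG
Igsf21 -36.9 kb, chr4:140283567-140283585, minus strand: TTCAGCACtatGGACAGCc

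The word GGACAG was intact in all 6 of these runs. They were picked as the best matches to RE1, which contains the word, so this was partly fixed by the choice. In the other peaks no run of the whole peak matched better than the one listed.

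Celf4 lies on the minus strand of chromosome 18 (25477632 to 25754157, 276.5 kb, 13 exons in the principal transcript). Its lead peak was 1063 bp wide (25667720 to 25668782) and lay in intron 2, 85.9 kb downstream of the gene's start. C29F4 gave 323 fragments (289 to 360) over 8.34. With ab9110 in DMSO there were 77 fragments (60.8 to 96.2) over 6.60, and the summits lay 2 bp apart. The fold was 10.3, which ranked 392 in that list, while the fragments ranked 48. The 77 fragments equal 44.8 at dTAG coverage, where 13 would have been called over the scaled background. Neither a dTAG peak nor an input peak overlapped the place. This peak too held an array, of 4 RE1-like runs on the minus strand within 150 bp, 42 to 45 bp apart, with a best match of 3 mismatches and no soft-masked base in the span.

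**Figure D2:**
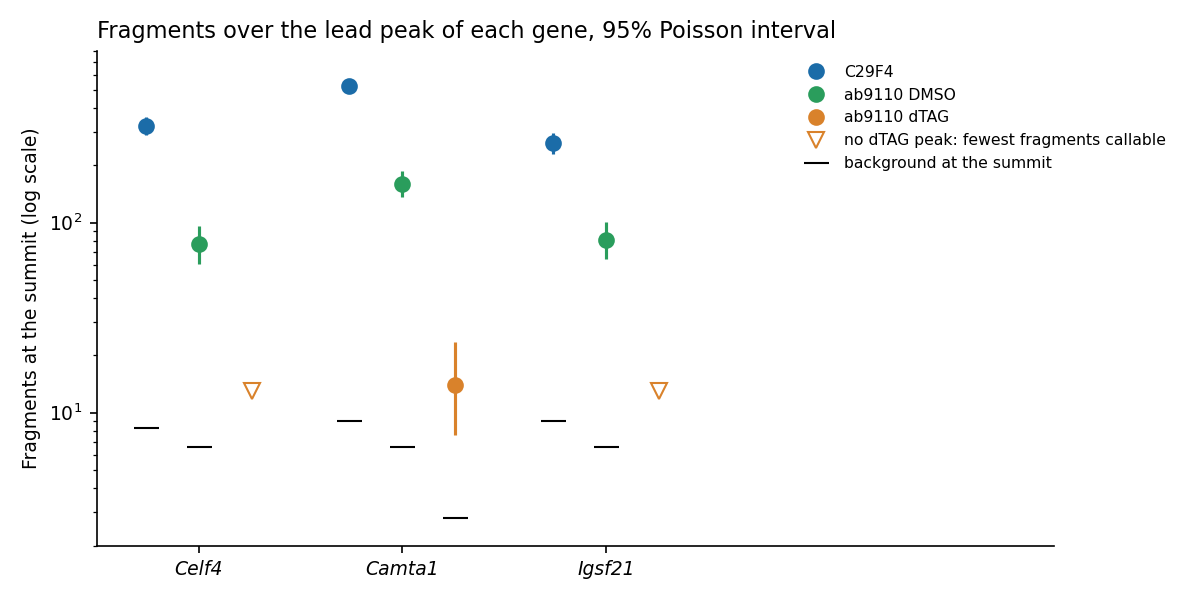
Fragments at the summit (log scale) over the lead peak of each gene by list, with 95% Poisson intervals and the background as black dashes. All 3 genes are highest with C29F4. At Celf4 and Igsf21, where no dTAG peak was called, open triangles mark the 13 fragments callable over the DMSO background scaled to dTAG coverage. The dTAG background itself is not known there.

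The 3 lead peaks thus shared their place in both DMSO lists, an array of RE1-like runs in 1 orientation, and no overlap with input. They differed after dTAG, where Camta1 alone kept a called peak. In the whole C29F4 list 67.0% of peaks overlapped an ab9110 DMSO peak, 21.7% a dTAG peak and 0.981% an input peak. A place in both DMSO lists and no overlap with input were therefore common in that list. The starting level was also highest at Camta1, and whether the remaining fraction differed between the genes was not tested.

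RE1-like runs were also found outside the lead peaks. A match with at most 3 mismatches lay within 150 bp of the summit of 7 of the 11 C29F4 peaks (63.6%, exact binomial interval 30.8 to 89.1%), against 4.16% of all C29F4 summits. All 3 lead peaks had such a match, and so did 4 of the other 8 (folds 3.21 to 11.9). In the list the share was higher among the strongest peaks: with the members left out, it was 2 of 17 (11.8%) among the 20 highest folds, 7 of 47 (14.9%) among the 50 highest and 3.72% among the 1000 highest. The peak at rank 4, which is not a member, matched with 1 mismatch. Among the ab9110 peaks of the windows it was 6 of 23 in DMSO (background 1.11%) and 1 of 11 after dTAG (0.355%). The dTAG peak was the one at the Camta1 lead, and the 6 DMSO peaks each overlapped one of these 7 C29F4 peaks. The same search matched 0.158% of 32851 RefSeq promoters (GRCm38.p6, 300 bases) and 0.0888% of 50682 windows of 300 bases spaced evenly along chromosome 4. The limit was set at as few mismatches as the lead peaks had, exactly 3 for each, so their inclusion was fixed by it. The share of the 11 peaks therefore partly describes the choice of limit. A limit of 2 would leave all lead peaks out. The peaks at 76.4 kb in Celf4, 675.9 kb in Camta1 and 36.9 kb upstream of Igsf21 would remain. At most 2 mismatches were found at 2.59% of all C29F4 summits.

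Arrays were rarer still. At least 3 runs lay within 150 bp of the summit at 5 of the 11 C29F4 peaks, against 30 of 11010 in the whole list (0.272%). These were the lead peaks, the peak at 572.5 kb in Camta1 (8 runs over 490 bp of the whole peak) and the peak 36.9 kb upstream of Igsf21 (4 runs over 209 bp). Of the 20 C29F4 peaks with the highest fold, 4 had such an array, the 3 lead peaks among them. In the ab9110 lists the count was 5 of 23 in DMSO (background 0.108%) and 1 of 11 after dTAG (0.0429%). The measure was set up on the lead peaks, so their own arrays describe them and do not stand as independent evidence.

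**Figure D3:**
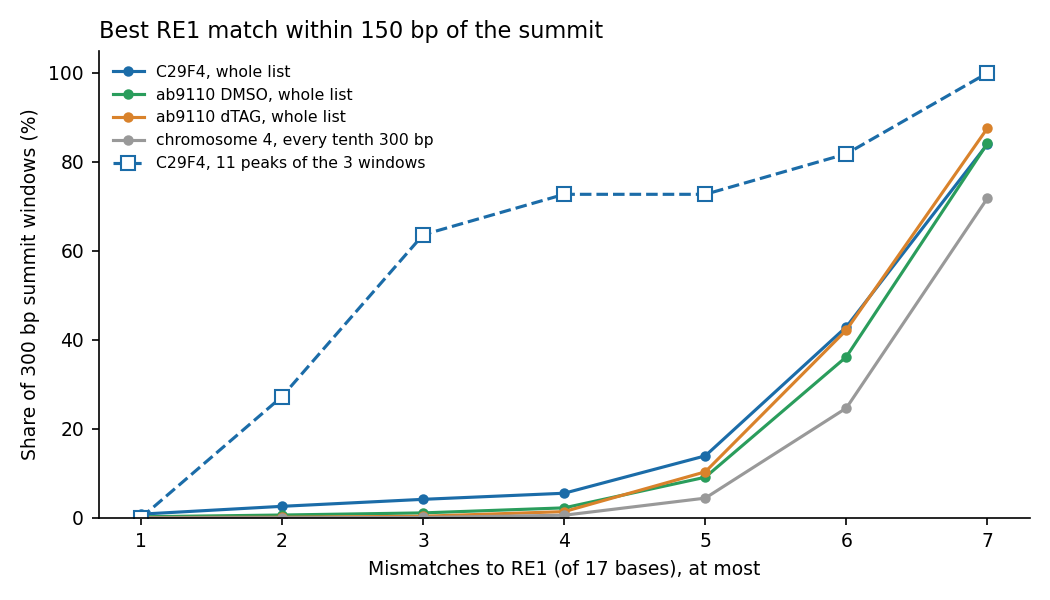
Share of 300 bp summit windows (%) whose best RE1 match has at most the given number of mismatches of 17 bases, for 3 whole lists, for chromosome 4 and for the 11 C29F4 peaks of the windows (open squares). At 3 mismatches the members reach 63.6% and the whole C29F4 list 4.16%. The 3 lead peaks all enter at that limit and not below it.

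The other motifs searched, TCACGTGA (an extended E-box), TTCCCGCC (an E2F6 site) and ATTTGCAT (the octamer bound by OCT4), occurred at few summits of any list. In the whole C29F4 list they were found at 0.263%, 0.690% and 3.22% of summits, and among chromosome 4 windows at 0.152%, 0.243% and 2.54%. These motifs were searched as exact matches, whereas RE1 was allowed mismatches. None was found within 150 bp of a lead summit, and neither was an exact copy of TTCAGCACC or GGACAGCG.

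**Figure D4:**
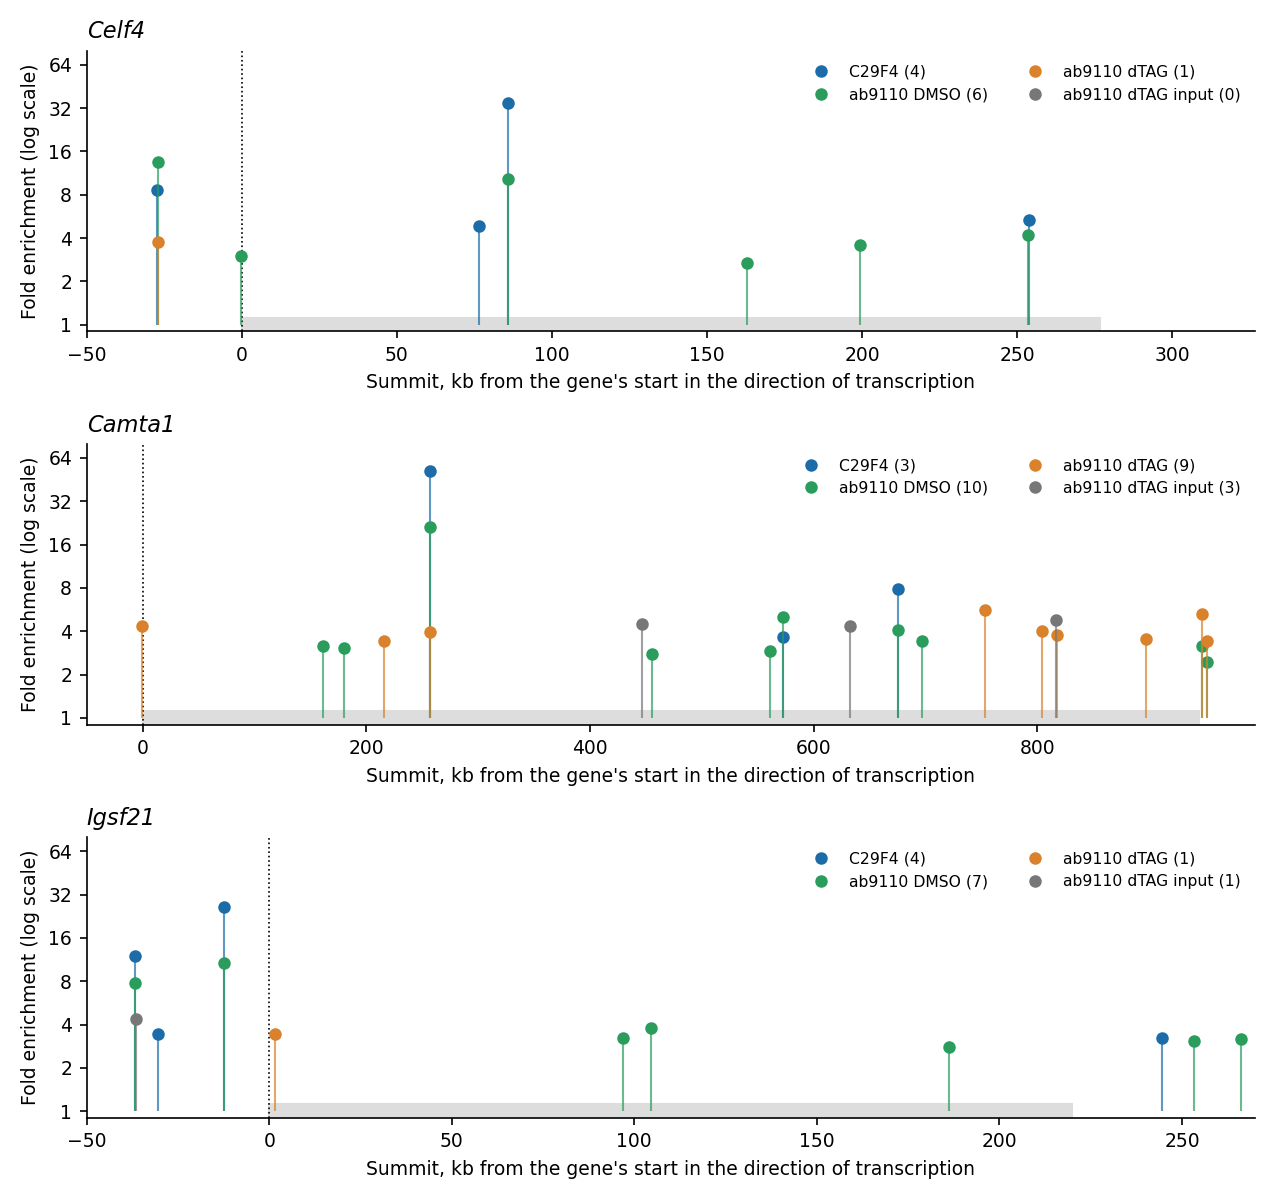
Summits of all 49 peaks in the 3 windows, placed by distance from the gene's start (kb, in the direction of transcription, gene body in grey), with fold enrichment on a log scale and 1 colour per list. The tallest stems are C29F4 and ab9110 DMSO peaks at the same places, while dTAG peaks stay at 5.64 or below and gather in the distal part of the Camta1 window.

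Besides its lead peak, the Celf4 window had 3 more C29F4 peaks. The strongest lay 27.2 kb upstream of the gene. C29F4 gave 68 fragments there (52.8 to 86.2, fold 8.68), and ab9110 in DMSO gave 50 (37.1 to 65.9, fold 13.4), the highest DMSO fold in the window and rank 75 of its list. After dTAG it had 10 fragments (4.80 to 18.4, fold 3.76), against 29.1 expected at that coverage from the DMSO value. Unlike the lead peaks, it lay mostly in repeats, with 78.6% of its bases soft-masked. Only 24.0% of its 32-base words occurred at a single place in the assembly. The authors' alignment put each read with several possible locations at 1 of them, so its position among copies is uncertain. Its best RE1 match had 6 mismatches.

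The remaining Celf4 peaks were weaker. A C29F4 peak at 253.6 kb (31 fragments, 21.1 to 44.0, fold 5.36) lay in intron 8 and 686 bp from an internal Celf4 start. An ab9110 DMSO peak with 19 fragments (fold 4.23) overlapped it, and no dTAG peak did. The third, at 76.4 kb in intron 2, was called with C29F4 only (32 fragments, fold 4.87) and held a run with 2 mismatches to RE1. At the Celf4 promoter a single weak DMSO peak was called, 121 bp upstream of the start, with 14 fragments (7.65 to 23.5, fold 3.01). It would not have passed the dTAG threshold at dTAG coverage, so its loss after dTAG was not detectable at this depth.

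In Camta1, both other C29F4 peaks lay in intron 6 and overlapped an ab9110 DMSO peak but no dTAG peak. At 675.9 kb C29F4 gave 95 fragments (76.9 to 116, fold 7.92) and ab9110 in DMSO gave 30 (20.2 to 42.8, fold 4.08). At 572.5 kb the values were 41 (29.4 to 55.6, fold 3.68) and 30 (20.2 to 42.8, fold 5.05). The DMSO value at both corresponds to 17.5 fragments at dTAG coverage, above the 13 and 12 that would have been called.

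Upstream of Igsf21 a second strong peak lay 36.9 kb from the start. C29F4 gave 152 fragments (129 to 178, fold 11.9) and ab9110 in DMSO gave 70 (54.6 to 88.4, fold 7.83). No dTAG peak was called, where the DMSO value corresponds to 40.8 fragments and 15 would have been called. This is the 1 C29F4 peak of the windows that overlapped an input peak (10 fragments, 4.80 to 18.4, fold 4.34, 169 bp wide). The part of uneven input chromatin in its height was not tested. The last C29F4 peaks of this window, 30.5 kb upstream (31 fragments, fold 3.43) and 244.6 kb downstream of the start, beyond the end of the gene (30 fragments, fold 3.21), were absent from the ab9110 lists and had best RE1 matches of 7 mismatches.

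The peaks called after dTAG were mostly elsewhere. The Camta1 window had 9 of them, and 7 of these had their summit within 1 kb of a transcription start. The Celf4 and Igsf21 windows had 1 each, neither of them at a start. In all, 7 of 11 dTAG peaks were near a start, against 43.9% of the whole dTAG list. The count was 1 of 11 for C29F4 (background 7.19%) and 5 of 23 for ab9110 in DMSO (16.7%).

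Within Camta1, the dTAG peak with the highest fold lay at 753.1 kb, 156 bp from an internal Camta1 start, with 14 fragments (7.65 to 23.5, fold 5.64). The promoter peak, 498 bp upstream of the first start, had 20 fragments (12.2 to 30.9, fold 4.35). Neither place had a peak in the DMSO lists. The others lay at starts of genes inside or next to Camta1. Per3, a circadian clock gene, and Vamp3, which encodes a vesicle fusion protein, had dTAG peaks 88 and 179 bp from a start, with 14 and 15 fragments. Park7 is the Parkinson disease gene that encodes DJ-1, and Tnfrsf9 encodes the T cell costimulatory receptor 4-1BB. Their dTAG peaks had 20 and 16 fragments (12.2 to 30.9 and 9.15 to 26.0). Both places were also called in DMSO with 23 fragments, which corresponds to 13.4 at dTAG coverage. The dTAG peak at the snRNA gene Gm23405 had 11 fragments. A further dTAG peak, 216.1 kb into Camta1, had 8 fragments and was near no start. In Igsf21 the single dTAG peak was 1618 bp into intron 1, with 11 fragments (5.49 to 19.7, fold 3.41). These dTAG values are low, and all 11 peaks had 20 fragments or fewer.

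Input peaks were few. Besides the one upstream of Igsf21, the Camta1 window had 3, with 9 to 11 fragments and folds of 4.33 to 4.83, and none overlapped a ChIP peak. One of these lay 417 bp from a Per3 start. The Celf4 window had none.

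Peaks that touched each other were joined, which put the 49 peaks into 36 sites. Both DMSO lists covered 8 sites, 2 of these with a dTAG peak and 1 with an input peak. Only C29F4 covered 3, only ab9110 DMSO 13, only ab9110 dTAG 7 and only input 3, and 2 were shared by the ab9110 lists alone.

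Overlap of the lists in the windows was counted beside that of the whole lists. An ab9110 DMSO peak lay over 8 of the 11 in C29F4 (72.7%, 39.0 to 94.0%), against 67.0% in the whole list, and a dTAG peak over 2 (18.2%), against 21.7%. DMSO without dTAG held for 6 of 11, against 46.1%. From the other side, 8 of 23 DMSO peaks overlapped a C29F4 peak, which is 34.8% (16.4 to 57.3%) against 18.1% of the list, and 3 of these 8 lay at the lead peaks that chose the genes. A dTAG peak lay over 4 of the 23 (17.4% against 18.9%). Among the 11 called after dTAG, 4 met a peak from DMSO (36.4% against 46.8%) and 2 a C29F4 peak (18.2% against 14.8%). Overlap with input was 1 of 11 for C29F4 (9.09%, interval 0.230 to 41.3%, against 0.981%), 1 of 23 for DMSO (4.35% against 0.627%) and 0 of 11 for dTAG (against 0.649%), and the C29F4 and DMSO peaks are the same place upstream of Igsf21.

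The counts above use the lists as called, at unequal depth. To set DMSO beside dTAG at like depth, DMSO fragments and background were multiplied by the coverage ratio of 58.2%, which leaves other differences between the libraries as they were. At dTAG coverage 10 of 23 DMSO peaks would still have passed the dTAG threshold, against 30.6% of the list, and 3 of these 10 overlapped a dTAG peak, against 38.4%. Of the DMSO peaks that were also found with C29F4, all 8 would have passed (72.3% of such peaks in the list) and 2 overlapped a dTAG peak (31.6%). Of the other 15, 2 would have passed (21.4%) and 2 overlapped a dTAG peak (16.1%). At the 6 shared peaks with no dTAG peak, the DMSO level would thus have been called at dTAG coverage, counting error left aside. The margin was narrow at 253.5 kb in Celf4, with 11.1 fragments where 10 would have been called. In intron 6 of Camta1 it was 17.5 fragments against 13 and 12.

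The windows held 11 C29F4 peaks where the genome-wide density would give 7.24. At least 3 of the 11 were fixed by the choice of genes, and without the lead peaks 8 remain. For ab9110 in DMSO it was 23 against 26.8, after dTAG 11 against 10.7, and for input 4 against 1.35. By gene, lead peaks included, C29F4 counts were 4 against 1.57 at Celf4, 4 against 1.33 at Igsf21 and 3 against 4.34 at Camta1. All 3 windows are long, at percentiles 97.1, 99.7 and 96.0 of protein-coding genes for Celf4, Camta1 and Igsf21.

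Repeat content of these peaks was below that of the list they came from. Soft-masked bases made up 20.6% of the 11 C29F4 peaks, against 57.1% of all bases in C29F4 peaks and 36.4% of the genome. The windows themselves were 17.3% (Celf4), 20.4% (Camta1) and 19.1% (Igsf21) soft-masked. Over 50% of bases were soft-masked in 1 of 11 C29F4 peaks (45.0% of the list), 3 of 23 DMSO peaks (35.2%) and 1 of 11 dTAG peaks (22.2%). The lead peaks were 3.67% (Celf4), 13.8% (Camta1) and 3.33% (Igsf21) masked. Of the span of the 5 RE1-like arrays, 0 to 20.1% was soft-masked. At least 99.3% of the 32-base words of each lead peak occurred at a single place in the assembly.

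The C29F4 peaks of the windows were also wide, with a median of 912 bp (329 to 1542) against 507 bp in the list. The lead peaks were at width percentiles 81.7 (Celf4), 89.6 (Camta1) and 77.7 (Igsf21). The DMSO peaks of the windows had a median of 474 bp against 429 bp, and the dTAG peaks 659 bp against 562 bp.

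Relatives of the 3 genes were looked up in the same way. These were the 5 other CELF genes and Camta2. A C29F4 peak lay in 2 of these 6 windows (32.1% of all protein-coding genes), an ab9110 DMSO peak in 6 (84.9%), a dTAG peak in 6 (71.2%) and an input peak in 2 (11.6%). Neither gene with a C29F4 peak came near the lead peaks, with highest C29F4 folds of 3.40 at Celf2 and 3.32 at Celf1. Camta2, Celf3, Celf5 and Celf6 had no C29F4 peak.

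The protein-coding genes most like each member were found by the distance between their highest log2 folds in the 4 lists. Closest to Celf4 was Kcnk9, a potassium channel gene, with folds of 27.0 (C29F4), 20.3 (DMSO) and 4.04 (dTAG), followed by Col6a4 and Snrpb. The C29F4 peak of Kcnk9 is the one at rank 4. It had an RE1 match with 1 mismatch and overlapped a DMSO peak but no dTAG peak, so these traits were not particular to the members. Closest to Camta1 was Igsf21, followed by Astn2 and Magel2, and closest to Igsf21 were Tenm3, Lrrc7 and Magel2. The distances were 0.71 to 0.88 for Celf4, 1.58 to 1.84 for Camta1 and 0.76 to 0.81 for Igsf21, so no gene was a close match for Camta1.

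The extension of 50 kb set part of these counts. Gene bodies alone hold 6 of the 11 C29F4 peaks, 16 of the 23 DMSO and 7 of the 11 dTAG peaks, and leave out the Igsf21 lead peak and the peaks upstream of Celf4 and Igsf21. With 100 kb the counts were 14, 29 and 16. The outermost peaks inside it were 45.8 kb downstream of Igsf21 (ab9110 DMSO, fold 3.20) and 36.5 kb upstream of it (input, fold 4.34). The nearest peaks outside were 59.0 kb downstream of Igsf21 (dTAG, fold 3.10) and 61.7 kb downstream of Camta1 (dTAG, fold 4.06). The nearest C29F4 peak outside lay 74.2 kb downstream of Celf4 (fold 4.82).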

How the data were processed

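HA ChIP-seq and input chromatin from EHMT2-dTAG mESCs were analysed as deposited peak lists in mm10. As far as the study's methods and the labels say, the authors aligned reads with STAR 2.7.10 so that a read with several locations was given 1, removed duplicates with Picard 2.26.0 and called peaks on paired-end fragments with MACS2 2.2.6, keeping those with a q-value under 0.05. The C29F4 list was called on merged replicates and the others per library. Use of a control library in peak calling is not given in the sources used here. The deposited lists give the fold at the summit, a ratio of pileup to background with 1 added to both. They also give the authors' −log10 p and −log10 q values and an integer score, which was not used. Separate C29F4 replicates and the DMSO inputs were not analysed here.

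The fragments over a summit and their background were solved from its fold and Poisson p-value, which succeeded for 100% of peaks in each list. The lowest background gave the mean coverage. To compare depth, DMSO fragments and background were multiplied by 58.2% and kept where −log10 p reached 4.28, the lowest of the dTAG list, which left 12488 of 40816 peaks. Peaks of different lists were counted as shared from 1 bp of overlap. Shares have exact binomial and fragments exact Poisson 95% intervals. With 1 list per condition no test was made. Genes came from GENCODE M21, and soft-masked bases and promoters from RefSeq GRCm38.p6. RE1 runs were counted in 300 bp centred on the summit. The solving of fragments and background, the overlaps and the RE1 searches were checked on simulated data (Python 3.11.15, numpy 2.4.6, scipy 1.17.1, bedtools 2.31.1).

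The genes, the lists of relatives and the motifs were chosen with earlier results of these data known. A further list of genes is not reported here. Peaks were named by rule: for each gene the C29F4 peak with the highest fold and what overlapped it, all other C29F4 peaks, peaks within 1 kb of a member's start, the highest DMSO and dTAG peak and all input peaks. The dTAG peaks at other genes' starts and the array measure were chosen after their values were seen. The alternatives were stricter q-values, other window sizes, other definitions of overlap, the DMSO list at dTAG coverage, summit windows for repeats, other ranks and a whole-peak RE1 search.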

Additional observations from a re-analysis of the deposited data

How the results depend on the processing

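Of 47 values computed under another setting, 34 stayed within 1.5 times the reported count, or within 1 SD for repeat shares. With gene bodies alone, the windows held 6 C29F4 and 7 dTAG peaks. At a q-value under 0.001 they held 11 DMSO, 6 dTAG and 0 input peaks, and at a q-value under 0.01 there was 1 input peak. At dTAG coverage 10 DMSO peaks were left. Overlap of C29F4 with dTAG fell from 2 peaks to 1 when 50% of the first peak had to be covered, when summits had to lie within 250 bp, and at a q-value under 0.001 in both lists. That q-value also left 2 DMSO peaks that overlapped a dTAG peak and 2 dTAG peaks that overlapped a DMSO peak. Overlap of C29F4 with DMSO was 8 under each of its 5 alternatives. Over the whole peak the best RE1 match at Camta1 had 1 mismatch in place of 3, and at Celf4 and Igsf21 it stayed at 3. Ranked by −log10 q or by fragments, the lead peaks were at 2, 3 and 4. Apart from the settings that keep fewer peaks by construction, the cause of these shifts was not tested. No paired analysis was possible because each condition has 1 peak list and no replicate of it.

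Peaks with few fragments limit the dTAG comparison: a place with fewer than 7 fragments after dTAG could not be called at mean coverage.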
